A study of Mus musculus with 30 samples.

Results

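The genes described here encode the proteasome and the factors that assemble it. They were chosen by name alone: every row of the deposited expression table whose gene symbol starts with Psma, Psmb, Psmc, Psmd, Psme, Psmf or Psmg and a digit, apart from 1 symbol that was left out and is not analysed here, which gave 47 of the 16995 genes. The table holds RNA-seq of spinal cord from adult female C57BL/6 mice (C57BL/6J in the study's methods) in which a photothrombotic stroke had destroyed the sensorimotor cortex of 1 hemisphere, with tissue taken at 4, 7, 14, 28 or 42 days post injury (dpi), and of sham-operated control mice (Ctrl) of the same strain. The tissue was the intermediate gray matter of cervical levels C5/C6, dissected on the side that had lost its cortical input, so each sample is a piece of bulk tissue and holds neurons, glia and vessels together. There were 5 animals in each group except 4 dpi, which had 4 with values, and each animal gave 1 library. The labels name no transgene and no drug, and the comparison group had the surgery without the lesion. Values are CPM, the measure derived from read counts that the authors normalized between libraries, written to 1 decimal place.

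The proteasome degrades proteins that carry a ubiquitin chain. Its 20S core is a barrel of alpha rings around beta rings, and 3 of the beta subunits (Psmb5, Psmb6 and Psmb7) cut the protein chain, while the 19S cap recognizes ubiquitin, unfolds the substrate with a ring of ATPases (Psmc genes) and feeds it into the core. Other caps (PA28 and PA200) and an inducible beta subunit (Psmb10) give alternative forms of the particle, and interferons raise several of these in immune activation. In neurons and glia the particle turns over synaptic, axonal and damaged proteins, and cells with too little proteasome activity raise its genes together through the transcription factor Nfe2l1, which binds antioxidant response elements in their promoters.

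The genes fell into 7 alpha subunits, 7 constitutive beta subunits, Psmb10 and the thymus-specific Psmb11, 6 ATPases of the 19S base, 11 other 19S subunits, 3 chaperones of the 19S base (Psmd5, Psmd9 and Psmd10), 5 activator genes, the regulator Psmf1, 4 chaperones of 20S assembly (Psmg1 to Psmg4), and Psmc3ip, a meiotic recombination factor that carries the name only. Psma8 and Psmb9 are not analysed here.

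Since most of these genes moved together, the sequence before the transcription start is shown for 5 of them: the catalytic subunits Psmb5 and Psmb6, the ATPase Psmc1, and the 19S subunits Psmd12 and Psmd11, of which Psmd12 was lower and Psmd11 higher at 28 dpi than at 14 dpi. Each line gives the 250 bases before the RefSeq start site on the gene's strand, 5′ to 3′, in GRCm38.p6. Capitals mark matches, on either strand, to TGACNNNGC, the core of the antioxidant response element, or to CCGGAAG, an ETS factor core.
Psmb5 (chr14:54617996-54618245, minus strand): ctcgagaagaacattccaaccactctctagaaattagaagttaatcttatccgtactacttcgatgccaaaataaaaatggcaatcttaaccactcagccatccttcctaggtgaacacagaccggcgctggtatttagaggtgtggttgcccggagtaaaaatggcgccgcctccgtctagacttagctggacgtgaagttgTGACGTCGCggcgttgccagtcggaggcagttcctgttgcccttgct
Psmb6 (chr11:70525107-70525356, plus strand): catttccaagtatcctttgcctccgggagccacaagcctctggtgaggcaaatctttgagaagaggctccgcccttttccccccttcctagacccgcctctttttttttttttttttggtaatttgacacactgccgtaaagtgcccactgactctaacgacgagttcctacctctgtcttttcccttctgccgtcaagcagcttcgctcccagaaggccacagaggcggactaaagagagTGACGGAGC
Psmc1 (chr12:100109952-100110201, plus strand): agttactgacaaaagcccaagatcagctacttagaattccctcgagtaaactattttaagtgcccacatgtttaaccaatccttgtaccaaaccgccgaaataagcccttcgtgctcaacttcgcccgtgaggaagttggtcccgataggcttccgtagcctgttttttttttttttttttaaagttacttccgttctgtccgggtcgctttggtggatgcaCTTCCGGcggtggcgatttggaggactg
Psmd12 (chr11:107479278-107479527, plus strand): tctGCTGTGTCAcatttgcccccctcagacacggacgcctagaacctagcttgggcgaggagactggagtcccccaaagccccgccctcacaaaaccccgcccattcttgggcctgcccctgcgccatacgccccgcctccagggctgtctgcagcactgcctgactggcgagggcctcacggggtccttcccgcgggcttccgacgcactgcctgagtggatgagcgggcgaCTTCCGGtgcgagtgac
Psmd11 (chr11:80428365-80428614, plus strand): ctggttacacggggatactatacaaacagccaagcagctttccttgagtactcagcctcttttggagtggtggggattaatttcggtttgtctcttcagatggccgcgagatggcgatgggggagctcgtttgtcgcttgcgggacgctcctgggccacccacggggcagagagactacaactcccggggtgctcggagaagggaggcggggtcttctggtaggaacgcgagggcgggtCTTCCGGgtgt
The element core lay 47 to 39 bases before the start of Psmb5, 9 to 1 bases before that of Psmb6 and 247 to 239 bases before that of Psmd12. The ETS core lay 28 to 22 bases before the start of Psmc1, 17 to 11 before that of Psmd12 and 11 to 5 before that of Psmd11. Of the 47 genes, 40 matched a RefSeq promoter entry of 300 bases (250 before and 50 after the start). Among these 40, CCGGAAG was present in 15 (37.5%), against 8.86% of all 32851 promoters of that length in the table. TGACNNNGC was present in 6 (15%) against 12.4%, and CCAAT in 14 (35%) against 37.4%. Both strands were searched, and each motif was counted on its own. A gene of the 40 was counted when any of its promoter entries held the motif, while the background counted single entries. These shares therefore differ in unit. These are counts of letters, and whether a factor binds there was not measured.

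The libraries differed in ways that touch the results at 28 dpi. The table's values summed to between 714597 and 2256910 per animal, while the median gene lay between 10.2 and 11.2 in every library. The lowest medians were those of the 28 dpi animals A4-4 (10.2), A4-3 (10.4) and A3-3 (10.5), followed by sham animal A11-1 (10.6). Read counts are not part of the table used here, so the depth is unknown. Much of the difference in sums lay in Rn18s-rs5, a ribosomal RNA sequence that the depletion step is meant to remove. Its value was 30321 to 52929 in sham animals, 18295 to 114026 in the 4 dpi group, 36202 to 116302 in the 7 dpi group, 32754 to 817780 in the 14 dpi group and 78737 to 457302 in the 42 dpi group. At 28 dpi it was 44755 in animal A4-1 and 291950, 323193, 417971 and 779160 in A4-3, A4-4, A3-1 and A3-3. Of the marker genes of neurons, glia, endothelium and lymphocytes checked, none was at 0 in every animal.

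Transcripts of the proteasome stood slightly above sham at 14 dpi, fell below it at 28 dpi and were near it again at 42 dpi under the deposited scaling. With every library scaled to the same sum, the median at 42 dpi was -0.61 and that of all genes -0.52. The level of a gene was tested with limma on log2(CPM + 0.5) over all 29 animals, with Benjamini-Hochberg adjustment over all 16995 genes, and a gene was called at adjusted p under 0.05. An F test over the 5 stroke groups and sham called 34 of the 47 genes, against 31.6% of all genes. At 28 dpi 26 of the 47 genes were lower than in sham animals and 0 were higher, against 13.0% and 11.9% of all genes; at unadjusted p under 0.05, 34 were lower and 3 higher, against 20.2% and 18.3% of all genes. The median log2 difference from sham over the 47 genes was -0.31 at 28 dpi, where the median of all genes was 0.00. With an extra limit of a 1.5-fold change, which is not the limit the study states on the log2 scale, 1 of the 47 genes passed at 28 dpi (4.64% of all genes). No gene of the 47 was called in limma at 4, 7, 14 or 42 dpi, where 0.106%, 0.0294%, 0.00588% and 0.0235% of all genes were called. At unadjusted p under 0.05 there were 0 genes lower and 0 higher at 4 dpi (2.37% and 2.78% of all genes), 4 higher at 7 dpi (2.22%), 22 higher at 14 dpi (6.25%) and 4 lower at 42 dpi (6.35%).

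The upward shift at 14 dpi was small and spread over nearly every gene. There 44 of the 47 genes lay above sham, against 47.8% of all genes, and their median log2 difference was 0.20 (all genes, -0.01). The 22 genes with unadjusted p under 0.05 made up 46.8% of the 47, against 6.25% of all genes higher at that limit. When every library was scaled to the same sum, the median at 14 dpi turned to -0.32 and that of all genes to -0.48, so the 47 genes stood above all genes under both scalings but above sham only under the deposited one. Microglial markers stood above sham at this time point too: all 10 had a mean above sham, with 0 called by limma and 8 higher at unadjusted p under 0.05, and their summed CPM was 156.9 to 210.4 against 131.7 to 146.8, without overlap. The part of this shift in the proteasome values was not tested.

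**Figure D1:**
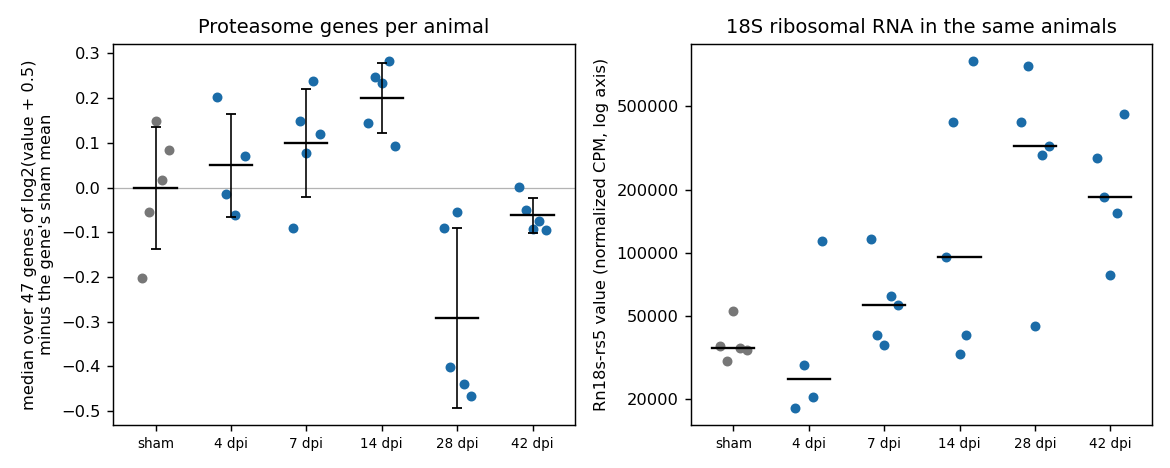
Left, the median over the 47 proteasome genes of log2(CPM + 0.5) minus the sham mean in each animal (points; bar, group mean ± SD); right, the value of the ribosomal RNA sequence Rn18s-rs5 in the same animals on a log axis (line, group median). The 14 dpi animals sit between 0.09 and 0.28, and 3 of the 5 animals at 28 dpi sit between -0.47 and -0.40.

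The animals at 28 dpi did not form a tight group. The median difference from the sham mean over the 47 genes was -0.06 in A4-1 and -0.09 in A3-1, within the sham range of -0.20 to 0.15. It was -0.40, -0.44 and -0.47 in A3-3, A4-3 and A4-4, below every sham animal. The 5 animals at 42 dpi lay between -0.10 and 0.00, and those at 14 dpi between 0.09 and 0.28. A4-1, the 28 dpi animal nearest to sham, had the lowest Rn18s-rs5 of its group (44755), and A3-3, A4-3 and A4-4 had 779160, 291950 and 323193, while A3-1 had 417971.

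How far the count at 28 dpi rests on single libraries was measured by leaving each out. It was 10 without sham animal A12-1, 15 without A3-3, 17 without A4-3 and 31 without A4-1, where 6.31%, 6.54%, 8.5% and 15.5% of all genes were called lower. Without the 6 libraries with Rn18s-rs5 above 300000 (3 of them at 28 dpi, a limit chosen after the values were seen) 4 of the 47 genes were called lower, against 3.01% of all genes, and the median was -0.26. These were Psmc1, Psmc6, Psmd6 and Psmd12. Among the genes that lost their call were Psmg2, Psmb4, Psma2 and Psmd13 (limma adjusted p = 0.117, 0.0804, 0.0647 and 0.0930). With log2 Rn18s-rs5 as a covariate, limma called 0 of the 47 genes and 0 of all genes at 28 dpi, 15 of the 47 were lower at unadjusted p under 0.05 (10% of all genes), and the median was -0.21. The part of the ribosomal RNA share in the decline was not tested beyond these values.

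**Figure D2:**
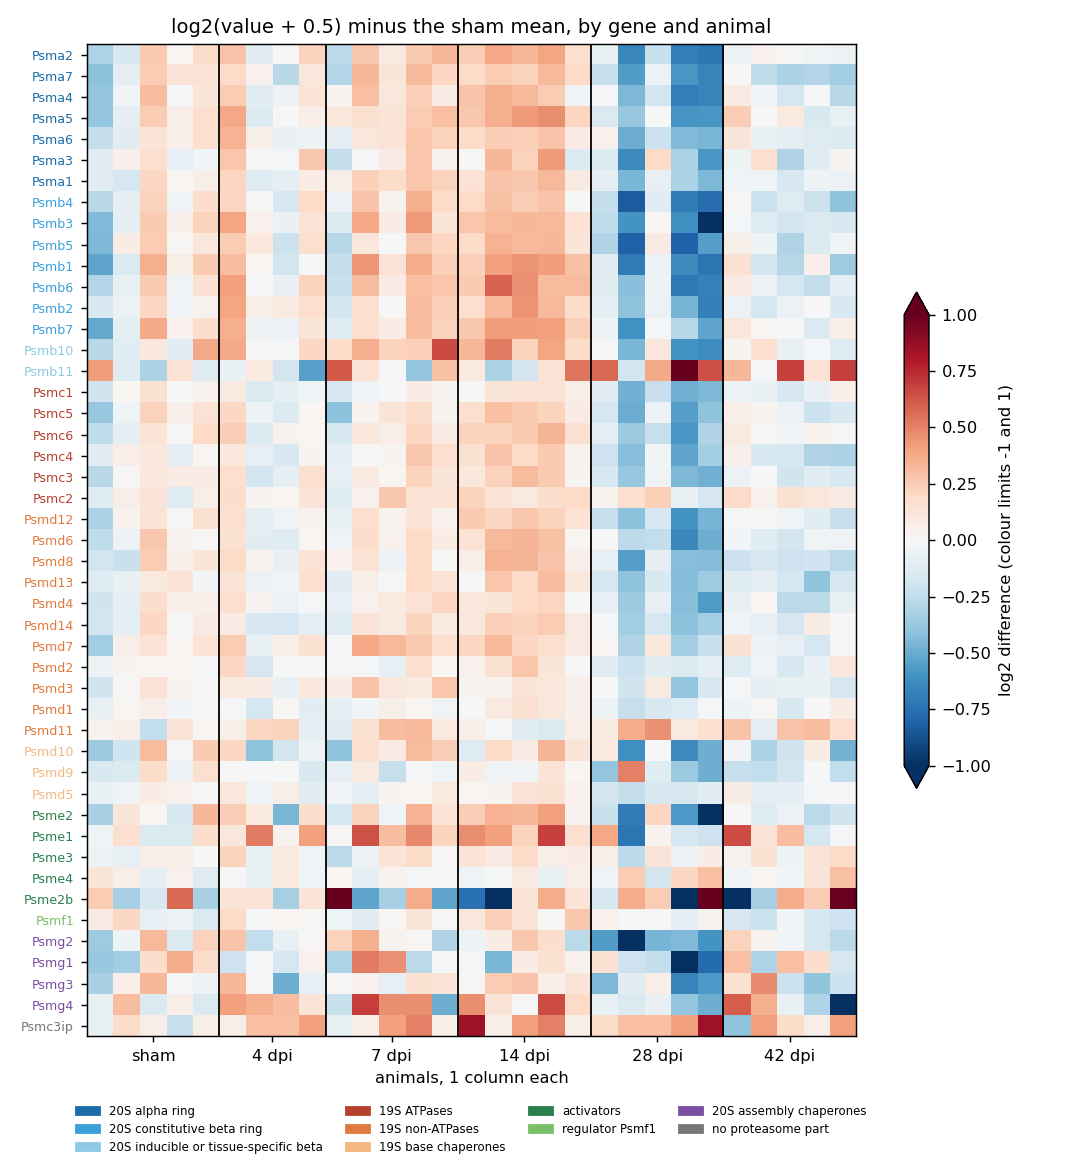
The log2(CPM + 0.5) value of each of the 47 genes (rows, label colour by subunit class) in each of the 29 animals (columns, by group) as the difference from the sham mean of that gene. The lower values are spread over the 20S and 19S rows in 3 of the 28 dpi columns, while the 28 dpi means of Psmf1, Psme3, Psmc2, Psme4 and Psmd11 differ from sham by -0.01 to 0.24.

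The alpha subunits form the outer rings of the core and its gate. Of the 7 genes, 6 were lower at 28 dpi than in sham animals, with a class median of -0.34 on the log2 scale, and the remaining one, Psma3, had a difference of -0.30 (limma, Benjamini-Hochberg adjusted p = 0.0791). Psma2 moved most. Its CPM was 37.4, 41.6, 47.1, 52.9 and 55.7 in sham animals, 52.2, 55.2, 58.7, 60.8 and 61.1 in the 14 dpi group, 28, 28.8, 29.3, 39.7 and 44.1 in the 28 dpi group, and 44.9, 44.9, 45.1, 46.9 and 47.8 in the 42 dpi group. Thus 3 of the 28 dpi animals lay below every sham animal and the other two inside the sham range, while all 5 lay below the whole of the 14 dpi and 42 dpi groups. The log2 difference of Psma2 from sham at 28 dpi was -0.47 (95% interval -0.71 to -0.23; limma, Benjamini-Hochberg adjusted p = 0.00636; exact permutation p = 0.0397). Psma5, the alpha subunit with the smallest p at 14 dpi, had 30.2, 31.5, 33.6, 35 and 36 CPM there against 19.8, 24.2, 27.2, 29.2 and 31.1 in sham animals. That difference of 0.35 on the log2 scale (95% interval 0.12 to 0.58) did not pass the adjustment (limma, Benjamini-Hochberg adjusted p = 0.381), and 1 sham animal overlapped the 14 dpi group. Psma1 had the smallest p of the alpha subunits at 7 dpi, with 36 to 41.9 CPM against 30.7 to 39.9 in sham animals, a log2 difference of 0.20 (95% interval 0.03 to 0.36; limma, Benjamini-Hochberg adjusted p = 0.802).

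The constitutive beta subunits form the inner rings of the core. Of the 7, 6 were lower at 28 dpi, with a class median of -0.45, the lowest of the core and cap classes. Psmb4, a structural subunit, had 45.1, 51.3, 53.6, 61.9 and 64.3 CPM in sham animals and 30.6, 32.1, 33.5, 46.4 and 50.8 in the 28 dpi group. The lower 3 of the 28 dpi animals were below all sham animals and the upper 2 overlapped them. Its log2 difference was -0.53 (95% interval -0.77 to -0.28; limma, Benjamini-Hochberg adjusted p = 0.00342). Psmb3, also structural, had 16, 20.4, 22.7, 25.6 and 26.3 CPM in sham animals and 10.6, 14.1, 14.3, 18.3 and 22.2 in the 28 dpi group, a log2 difference of -0.49 (95% interval -0.77 to -0.21; limma, Benjamini-Hochberg adjusted p = 0.0127); its adjusted p was 0.0503 without sham animal A12-1 and 0.0515 without A4-4 of 28 dpi. At 4 dpi the smallest p of the beta subunits was that of Psmb2, with 22.8, 23.3, 24.6 and 28.8 CPM against 19.6 to 25.3 in sham animals, a log2 difference of 0.18 (95% interval -0.04 to 0.40).

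Of the 3 catalytic subunits, 2 were lower at 28 dpi. Psmb5, which carries the chymotrypsin-like site, had 21.1, 29.2, 30.6, 31.5 and 34.7 CPM in sham animals, 31.6, 33.2, 36.5, 36.6 and 37 in the 14 dpi group, 16.4, 16.4, 19.7, 23.5 and 30.7 in the 28 dpi group, and 23.5, 26.3, 28, 28.5 and 30.2 in the 42 dpi group. The 28 dpi animals were all below the 14 dpi animals and overlapped the sham group, in which 1 animal was low. The log2 difference from sham at 28 dpi was -0.48 (95% interval -0.75 to -0.20; limma, Benjamini-Hochberg adjusted p = 0.0134), and the exact permutation p of that pair of groups was 0.0635. The limma adjusted p rose to 0.0522 without sham animal A12-1 and to 0.0573 without A3-3. Psmb6, the caspase-like subunit, had 33.8, 39.5, 40.4, 46.2 and 50 CPM in sham animals, 49.9, 51.9, 52, 57.3 and 62.9 in the 14 dpi group, and 25.1, 25.8, 31, 38.7 and 40.1 in the 28 dpi group. At 14 dpi only the highest sham animal reached the group, and the log2 difference of 0.39 (95% interval 0.13 to 0.64) did not pass (limma, Benjamini-Hochberg adjusted p = 0.381); at 28 dpi it was -0.39 (95% interval -0.65 to -0.14; adjusted p = 0.0222). The call of Psmb6 at 28 dpi was lost without sham animal A12-1 or A12-3, or without A3-3, A4-3 or A4-4 of 28 dpi (limma adjusted p = 0.0525 to 0.0824). Psmb7, the trypsin-like subunit, had 38.7, 52.2, 57.1, 62.8 and 72.2 CPM in sham animals and 36.3, 38.4, 45.3, 53.5 and 55 in the 28 dpi group. Its sham CPM had the widest spread of the 3 (56.6 ± 12.5, SD, n = 5), while its standard error in the fit was 0.122, against 0.136 for Psmb5 and 0.125 for Psmb6. Its log2 difference of -0.30 (95% interval -0.55 to -0.05) was the smallest of the 3 and was not called (limma, Benjamini-Hochberg adjusted p = 0.0730). It was called without sham animal A11-1 (limma adjusted p = 0.00672), A3-1 (0.0346) or A4-1 (0.0302).

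**Figure D3:**
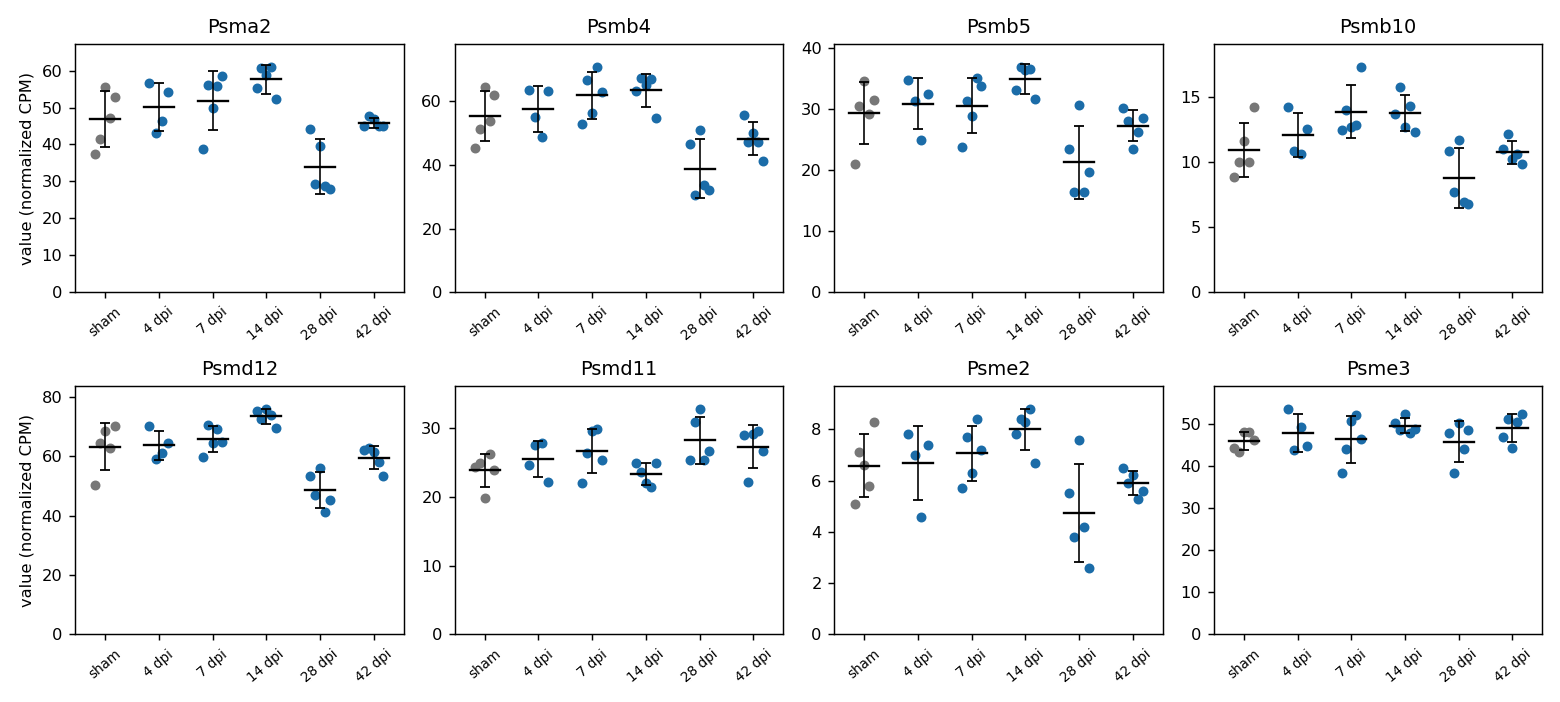
CPM of 8 genes in every animal (points) by group, with the group mean ± SD, on linear axes that differ between panels. Psma2, Psmb4, Psmb5, Psmb10, Psmd12 and Psme2 dip at 28 dpi, Psmd11 is at 25.3 to 32.8 there against 21.4 to 24.9 in the 14 dpi group, and the groups of Psme3 overlap.

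Psmb10 takes the place of Psmb7 in the immunoproteasome. It had 8.8, 10, 10, 11.6 and 14.2 CPM in sham animals, 12.4, 12.7, 12.8, 14 and 17.3 in the 7 dpi group, 12.3, 12.7, 13.7, 14.3 and 15.7 in the 14 dpi group, and 6.8, 6.9, 7.7, 10.8 and 11.7 in the 28 dpi group. The 7 and 14 dpi animals were above 4 of the 5 sham animals and overlapped the highest. The log2 difference at 7 dpi was 0.34 (95% interval 0.07 to 0.61; limma, Benjamini-Hochberg adjusted p = 0.796) and at 28 dpi -0.32 (95% interval -0.59 to -0.05; adjusted p = 0.0774), so neither was called. The decline at 28 dpi was called without sham animal A11-1, or without A3-1 or A4-1 of 28 dpi (limma adjusted p = 0.0369, 0.0288 and 0.0169). Within each animal the log2 ratio of Psmb10 to Psmb7 was -2.31 on average in sham animals and differed from that by -0.02 at 28 dpi. Of 20 such comparisons, over the ratios of Psmb10 to Psmb7, Psme1 to Psme3, Psme2 to Psme3 and Psme2 to Psme1 at 5 time points, 0 passed adjustment, and the smallest exact permutation p was 0.0397 (adjusted p = 0.357). Over 20 tests the smallest p of this design, 0.00794, could not have passed for 1 ratio alone, so these adjusted values do not show that the ratios stayed the same. In the same libraries all 15 interferon-responsive genes of a fixed list, which includes the transcription factor Irf1, lay above sham at 4 dpi. Of these, 0 were called by limma and 6 were higher at unadjusted p under 0.05 (2.78% of all genes). All 10 microglial markers lay above sham there too, with 2 called higher by limma and 8 higher at the unadjusted limit. Their summed CPM was 168.2 to 275.4 against 131.7 to 146.8 in sham animals. The part of microglia in the interferon-responsive values was not tested. At 28 dpi 1 of the 15 genes was called higher, against 11.9% of all genes. This was Nlrc5, a regulator of antigen presentation genes, at 1.38 CPM against 0.58 in sham animals (limma, Benjamini-Hochberg adjusted p = 0.00839). Psmb11, which is built into proteasomes of the thymic cortex, was near the lower end of the table, at 2.16 ± 0.55 CPM in sham animals and 3.46 ± 1.38 at 28 dpi (SD, n = 5 each; limma, Benjamini-Hochberg adjusted p = 0.0696).

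The ATPases of the 19S base unfold substrates. Of the 6 genes, 5 were lower at 28 dpi, with a class median of -0.31. Psmc1 had 92.3, 105.7, 107.4, 109.3 and 117.8 CPM in sham animals, 75.8, 76.1, 77.6, 90.3 and 97.9 in the 28 dpi group, and 95.2, 100.8, 101.4, 102.2 and 109.8 in the 42 dpi group. The 28 dpi animals lay low, with 1 of them above the lowest sham animal and above the lowest at 42 dpi. The log2 difference from sham was -0.35 (95% interval -0.49 to -0.21; limma, Benjamini-Hochberg adjusted p = 0.00172). The exception was Psmc2, at 61.3 ± 4.93 CPM in sham animals and 63.1 ± 7.36 at 28 dpi (SD, n = 5 each), with a log2 difference of 0.04 (95% interval -0.11 to 0.18; limma, Benjamini-Hochberg adjusted p = 0.737). Scaled to the same sum per library, Psmc2 turned to -0.75, where the median of all genes was -0.73.

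Of the 11 other 19S subunits, which bind ubiquitin, remove it or hold the cap together, 6 were lower at 28 dpi (class median -0.26). Psmd12, a lid subunit, had 50.3, 62.8, 64.5, 68.6 and 70.1 CPM in sham animals, 69.6, 72.5, 74, 75.4 and 76 in the 14 dpi group, and 41.4, 45.3, 47.1, 53.5 and 56 in the 28 dpi group. Only the lowest sham animal overlapped the 28 dpi group, and its log2 difference was -0.37 (95% interval -0.54 to -0.21; limma, Benjamini-Hochberg adjusted p = 0.00238). Psmd13, also of the lid, had 27.4, 28.4, 29.4, 32 and 32.9 CPM in sham animals and 22, 22.5, 23.3, 26.5 and 26.9 in the 28 dpi group. These groups did not overlap (log2 difference -0.30; limma, Benjamini-Hochberg adjusted p = 0.00692; exact permutation p = 0.00794, the smallest this design gives). Psmd2, a ubiquitin-binding scaffold of the base, also had 28 dpi animals (139.4 to 151.7 CPM) all below sham animals (155.8 to 164.8), but its shift of -0.13 was too small for a call (limma, Benjamini-Hochberg adjusted p = 0.111). In all, 4 of the 47 genes had every 28 dpi animal below every sham animal (Psmd13, Psmd2, Psmd5 and Psmg2), against 3.75% of all genes. At 42 dpi Psmd13 and the lid subunit Psmd8 had the smallest p of the 47, with log2 differences from sham of -0.19 and -0.21 (limma, Benjamini-Hochberg adjusted p = 0.238 and 0.279).

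Psmd11, a lid subunit that promotes assembly of the full particle, moved the other way. It had 19.9, 23.9, 24.3, 24.9 and 26.2 CPM in sham animals, 21.4, 22, 23.6, 24.9 and 24.9 in the 14 dpi group, 25.3, 25.4, 26.6, 30.9 and 32.8 in the 28 dpi group, and 22.1, 26.7, 29, 29.1 and 29.5 in the 42 dpi group. Every 28 dpi animal was above every 14 dpi animal, as for 10.2% of all genes, and 1 sham animal overlapped. The log2 difference between 28 and 14 dpi was 0.26 (95% interval 0.07 to 0.45; limma, Benjamini-Hochberg adjusted p = 0.0263), and that between 28 dpi and sham was 0.24 (95% interval 0.04 to 0.43; adjusted p = 0.0654). The call against 14 dpi was lost without A5-4 or A6-2 of 14 dpi or without A3-3 or A4-1 of 28 dpi (limma adjusted p = 0.0619 to 0.0864), without the 6 libraries with Rn18s-rs5 above 300000 (log2 difference 0.34, adjusted p = 0.0867), and when every library was scaled to the same sum. The difference from sham was called under quantile normalization, under median centring, with the unit of the animal identifier as random block and without A3-1 (limma adjusted p = 0.0337, 0.0404, 0.0470 and 0.0400). Of the 31-base words of its transcript, 27.8% also occur in A730017L22Rik, so reads of those words may have been split between them.

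**Figure D4:**
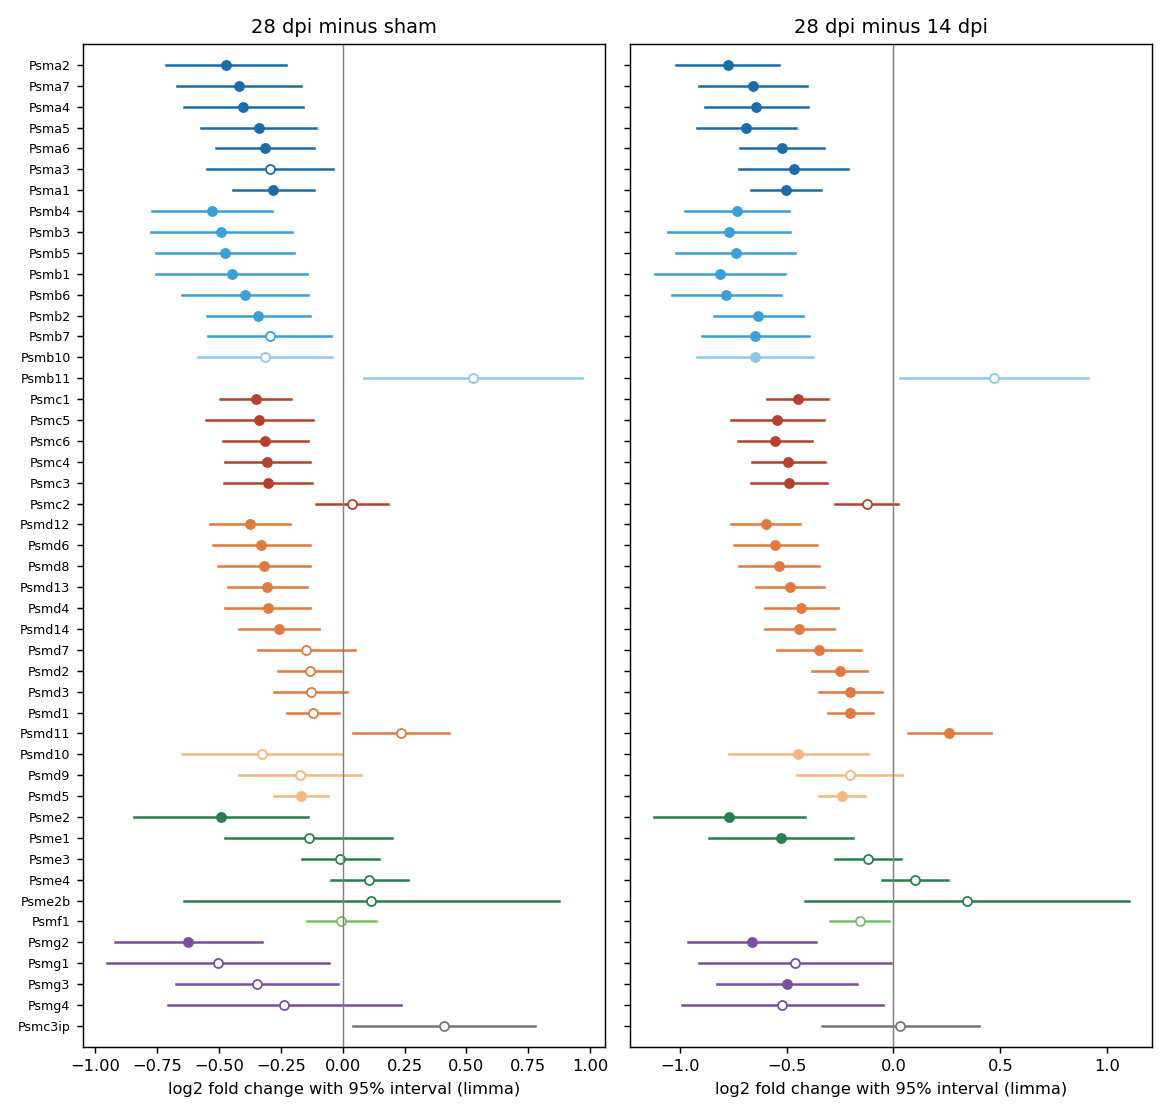
Log2 difference with its 95% interval for each of the 47 genes, ordered by subunit class, for 28 dpi minus sham and 28 dpi minus 14 dpi; filled points passed Benjamini-Hochberg adjusted p under 0.05 in limma. Against 14 dpi all 7 alpha and all 7 constitutive beta subunits are filled and below 0, and Psmd11 is filled above 0.

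The activators replace the 19S cap and open the core. Psme1 and Psme2 encode the alpha and beta subunits of PA28, Psme3 the nuclear PA28 gamma and Psme4 PA200. Psme2 had 5.1, 5.8, 6.6, 7.1 and 8.3 CPM in sham animals, 6.7, 7.8, 8.3, 8.4 and 8.8 in the 14 dpi group, and 2.6, 3.8, 4.2, 5.5 and 7.6 in the 28 dpi group. At 28 dpi 3 animals were below all sham animals and 1 was among the higher sham animals. The log2 difference was -0.49 (95% interval -0.84 to -0.14; limma, Benjamini-Hochberg adjusted p = 0.0368; exact permutation p = 0.0952). That call was lost without sham animal A11-4, A12-1 or A12-3 and without A3-3, A4-3 or A4-4 of 28 dpi (limma adjusted p = 0.0707 to 0.149). Of the words of its transcript, 66.2% also occur in Psme2b, itself listed at 0 to 1.9 CPM, so the split between these genes is uncertain. Its partner Psme1 had 4.6, 4.6, 5, 5.8 and 5.9 CPM in sham animals, 5.8, 6.1, 7, 7.3 and 8.6 in the 14 dpi group, and 2.9, 4.4, 4.5, 5.3 and 6.9 in the 28 dpi group, with a log2 difference from sham of -0.14 at 28 dpi (limma, Benjamini-Hochberg adjusted p = 0.565). At 4 dpi Psme1 was 5.3 to 7.6 CPM and at 7 dpi 5.2 to 8.3. At 7 dpi and at 14 dpi 4 of the 5 animals were above every sham animal, with log2 differences of 0.33 (95% interval -0.00479 to 0.67) and 0.39 (95% interval 0.05 to 0.73), neither of which was called (limma, Benjamini-Hochberg adjusted p = 0.856 and 0.393; exact permutation p = 0.0397 and 0.0238). Psme2 was 4.6 to 7.8 CPM at 4 dpi and 5.7 to 8.4 at 7 dpi, within or near the sham range. Psme3 was 43.2, 44.2, 46, 47.9 and 48.1 CPM in sham animals and 38.2, 44, 47.8, 48.4 and 50.2 in the 28 dpi group, a log2 difference of -0.01 (95% interval -0.17 to 0.15; limma, Benjamini-Hochberg adjusted p = 0.938). Psme4 was 56.8, 58.1, 64.1, 65.2 and 67.7 CPM in sham animals and 54.8, 60.3, 72, 74.4 and 76.6 in the 28 dpi group. Of those animals 3 exceeded every sham animal and 1 was below all of them, a log2 difference of 0.11 (95% interval -0.05 to 0.26; limma, Benjamini-Hochberg adjusted p = 0.306) that turned to -0.68 when libraries were scaled to the same sum, a scaling under which the median of all genes was -0.73. The within-animal ratio of Psme2 to Psme3 differed from sham by -0.48 on the log2 scale at 28 dpi (exact permutation p = 0.0714, adjusted p = 0.357), and that of Psme1 to Psme3 by 0.33 at 7 dpi (exact permutation p = 0.0397, adjusted p = 0.357).

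The chaperones that build the core and the base are not part of the finished particle. Psmg2, which with Psmg1 scaffolds the alpha ring, was the gene with the largest called change at 28 dpi, and the 1 gene of the 47 past the 1.5-fold limit. It had 4.7, 5.5, 5.9, 7.3 and 7.8 CPM in sham animals, 5, 5.9, 6.5, 7 and 7.5 in the 14 dpi group, 2.7, 3.9, 4, 4.3 and 4.4 in the 28 dpi group, and 5, 5.4, 6, 6.3 and 7.3 in the 42 dpi group. The 28 dpi animals were below all animals of the sham, 14 and 42 dpi groups. The log2 difference from sham was -0.62 (95% interval -0.92 to -0.33; limma, Benjamini-Hochberg adjusted p = 0.00408; exact permutation p = 0.00794). The call of Psmg2 was lost without the 6 libraries with Rn18s-rs5 above 300000 (limma adjusted p = 0.117). Psmg1 (-0.50, 95% interval -0.95 to -0.05), Psmg3 (-0.35) and Psmg4 (-0.24) lay on the same side and were not called (limma, Benjamini-Hochberg adjusted p = 0.0890, 0.108 and 0.469). Psmd5, a chaperone of the base, was 40.2 to 44.5 CPM in sham animals and 35.6, 37, 37.6, 37.9 and 39.2 in the 28 dpi group, without overlap (log2 difference -0.17, 95% interval -0.28 to -0.06; limma, Benjamini-Hochberg adjusted p = 0.0218). That call was lost under quantile normalization and median centring (adjusted p = 0.0748 and 0.0727), without sham animal A12-1 (0.0713) and without A3-3 (0.0681). Psmf1, an inhibitor of the core in vitro, differed by -0.01 (95% interval -0.15 to 0.13; limma, Benjamini-Hochberg adjusted p = 0.958). Psmc3ip was 0.56 ± 0.114 CPM in sham animals and 0.92 ± 0.277 at 28 dpi (SD, n = 5 each; limma, Benjamini-Hochberg adjusted p = 0.0924).

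The largest difference between neighbouring time points compared here was that from 14 to 28 dpi. Of the 47 genes, 36 were lower at 28 dpi than at 14 dpi and 1 was higher, against 21.9% and 21.0% of all genes, and the median log2 difference was -0.50 (all genes, 0.02). All 5 animals at 28 dpi were below all 5 at 14 dpi for 29 of the 47 genes, against 11.8% of all genes, including 5 of the 7 alpha subunits, all 7 constitutive beta subunits and 5 of the 6 ATPases. With the 1.5-fold limit 15 genes remained, against 11.8% of all genes. By class, all 7 alpha subunits (median -0.64), all 7 constitutive beta subunits (median -0.74), 5 of the 6 ATPases (median -0.49) and 10 of the 11 other 19S subunits (median -0.43) were lower. Psmb1, a structural beta subunit, moved most. It had 61.3, 63.5, 68.9, 69.2 and 70.9 CPM at 14 dpi and 31, 31.5, 33.1, 47.8 and 49.8 in the 28 dpi group. These groups did not overlap, and the log2 difference was -0.81 (95% interval -1.11 to -0.51; limma, Benjamini-Hochberg adjusted p = 0.000119). Psmb6 followed with -0.78 (adjusted p = 3.92e-05), Psma2 with -0.78 (adjusted p = 2.85e-05), Psmb3 with -0.77 (adjusted p = 0.000103), Psme2 with -0.77 (adjusted p = 0.000820) and Psmb5 with -0.74 (adjusted p = 0.000125), all in limma. Psmb10 fell between these groups as well (log2 difference -0.65, 95% interval -0.92 to -0.38, limma, Benjamini-Hochberg adjusted p = 0.000338), as did Psme1 (-0.53, adjusted p = 0.0115). The call of Psme1 was lost without A3-3 (limma adjusted p = 0.0610), without the 6 libraries above 300000 (0.0658), after the length and GC correction (0.0764) and under the same-sum scaling (0.0959), and that of Psme2 without the 6 libraries (log2 difference -0.51, adjusted p = 0.0851). In this step 34 genes were lower with log2 Rn18s-rs5 as a covariate (19.9% of all genes), 30 without the 6 libraries above 300000 (12.8%), and 34 to 37 with any 1 animal of these groups left out (18.6% to 22.7%). Without A4-1, Psmc2 was lower (-0.18; limma adjusted p = 0.0466) and Psme4 higher (0.17; adjusted p = 0.0493). With every library scaled to the same sum, 15 were lower and 0 higher, against 3.74% and 0.477% of all genes.

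At 42 dpi the levels lay nearer to sham than at 28 dpi. Of the 47 genes, 5 were higher at 42 dpi than at 28 dpi (Psmg2, Psma2, Psmc6, Psmd12 and Psmc1) and 0 lower, against 1.45% and 0.494% of all genes, and the median log2 difference was 0.21 (all genes, -0.01). At unadjusted p under 0.05, 24 were higher, against 12.3% of all genes, and 1 was lower, against 8.82%. Psmg2 rose by 0.58 on the log2 scale (95% interval 0.28 to 0.88; limma, Benjamini-Hochberg adjusted p = 0.0386), and Psma2, given with the other alpha subunits above, by 0.45 (95% interval 0.21 to 0.70; adjusted p = 0.0433). Psmc6, an ATPase, had 36.7, 42.8, 44.7, 47 and 51.8 CPM at 28 dpi and 54.1, 54.5, 55.5, 56.6 and 58.8 in the 42 dpi group, without overlap (log2 difference 0.33, 95% interval 0.16 to 0.50; limma, Benjamini-Hochberg adjusted p = 0.0390). Psmd12 and Psmc1 rose by 0.30 and 0.29 (limma, Benjamini-Hochberg adjusted p = 0.0474 and 0.0328). In 4 genes (Psma2, Psmc6, Psmd5 and Psmg2) every 42 dpi animal was above every 28 dpi animal, against 1.64% of all genes. The adjusted p values were close to the threshold, and the count went from 0 (without A3-3, A4-3 or A4-4 at 28 dpi, or without A1-1, A1-2 or A1-4 at 42 dpi) through 1 (without A3-4 at 42 dpi) to 10 and 12 (without A4-1 and A3-1 at 28 dpi, where 4.4% and 5.3% of all genes were called higher). The comparisons with sham share the 5 sham animals, and both steps share the 5 animals at 28 dpi.

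Most other genes of the ubiquitin-proteasome pathway also lay below sham at 28 dpi. Of 32 further genes of the pathway, 26 had a log2 difference below 0 there (median -0.13). Of these 32, 9 were called lower and 1 higher, against 13.0% and 11.9% of all genes. Between 14 and 28 dpi 19 were lower and 3 higher (median -0.24), against 21.9% and 21.0% of all genes. Pomp, the chaperone that completes core assembly, was 42.8 CPM on average in sham animals and 30.4 at 28 dpi (log2 difference -0.48; limma, Benjamini-Hochberg adjusted p = 0.00713). The autophagy receptor Sqstm1 (-0.27), the deubiquitinase Uchl5 (-0.31), the 19S-bound thioredoxin-like protein Txnl1 (-0.34), the shuttle factor Rad23b (-0.23), the proteasome-binding Zfand5 (-0.22) and the deglycosylase Ngly1 (-0.19), which activates Nfe2l1, were also lower. Ubqln2, which carries ubiquitinated proteins to the proteasome, was higher at 28 dpi, at 58.7 against 43.0 CPM (log2 difference 0.44; limma, Benjamini-Hochberg adjusted p = 0.0216). Between 14 and 28 dpi the ubiquitin ligase gene Ube3a (0.20), the protease gene Ddi2 (0.24) and Ubqln2 (0.70) were the 3 higher genes.

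Other large sets of housekeeping genes also held many genes that were lower at 28 dpi. Of 77 cytosolic ribosomal protein genes, 55 were lower at 28 dpi than in sham animals (median -0.46) and 72 lower than at 14 dpi (median -0.77). Of 74 nuclear genes of oxidative phosphorylation, 61 were lower than sham (median -0.46) and 72 lower than at 14 dpi (median -0.78). The shares of all genes called lower in these comparisons were 13.0% and 21.9%. The 47 proteasome genes, with 26 and 36 lower and medians of -0.31 and -0.50, thus moved in the same direction with smaller medians, a difference for which no test was made. Rps27a belongs both to the ribosomal genes and to the further pathway genes.

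Marker genes of cell types were set beside these values, since in bulk tissue fewer cells of a type and less RNA per cell cannot be told apart. Among all genes, 13.0% were called lower and 11.9% higher than sham at 28 dpi. At that time point 3 of 5 oligodendrocyte markers were lower than in sham animals, Mobp and Mog among them. The summed CPM of the 5 was 4250.6 to 6264.8 against 5913.2 to 8798.6. Of 12 neuronal markers 1 was lower (Snap25) and 1 higher (Slc6a5), with sums of 4510.4 to 5118.3 against 4747.7 to 6416.5 in sham animals and 5504.8 to 6895.7 in the 14 dpi group. Of 5 astrocyte markers 2 were lower (Aqp4 and Aldh1l1), with sums of 630.7 to 731.1 against 649.8 to 901.1. Of 10 microglial markers 2 were higher (Mpeg1 and Cx3cr1), with sums of 127.2 to 185.2 against 131.7 to 146.8, and of 4 endothelial markers 1 was higher (Flt1), with sums of 74.1 to 125.8 against 63.3 to 95.5. Cd8a, the 1 lymphocyte marker in the table, was at 0.4 to 1.9 CPM over all animals. In the step from 14 to 28 dpi 4 of 5 oligodendrocyte, 5 of 12 neuronal and 4 of 10 microglial markers were called lower, against 21.9% of all genes. Called higher in that step were 2 of 4 endothelial markers, 1 neuronal marker and Cd8a, against 21.0% of all genes. Of the 5 astrocyte markers 0 were called. The part of these shifts in the proteasome result was not tested.

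The proteasome genes have short transcripts, and among them the shorter ones moved more. Their median transcript length was 1430 bases, against 2897 for all genes with a length, while their GC content was similar (49.8% and 49.7%). Over the 47 genes, which share the same libraries, Pearson's r between log2 length and the log2 difference was 0.54 for 28 against 14 dpi (Spearman's rho 0.54), 0.50 for 28 dpi against sham (rho 0.52) and -0.46 for 42 against 28 dpi (rho -0.50); these are descriptions across genes, which are not independent replicates. The shorter 23 genes had a median of -0.63 between 14 and 28 dpi and the longer 24 one of -0.39. Among all genes, the 5005 shorter than 2000 bases had a median of -0.21 in that step and the 11914 longer ones 0.06. After a correction for length and GC, 33 of the 47 genes were lower in this step, against 22.4% of all genes, with a median of -0.33.

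**Figure D5:**
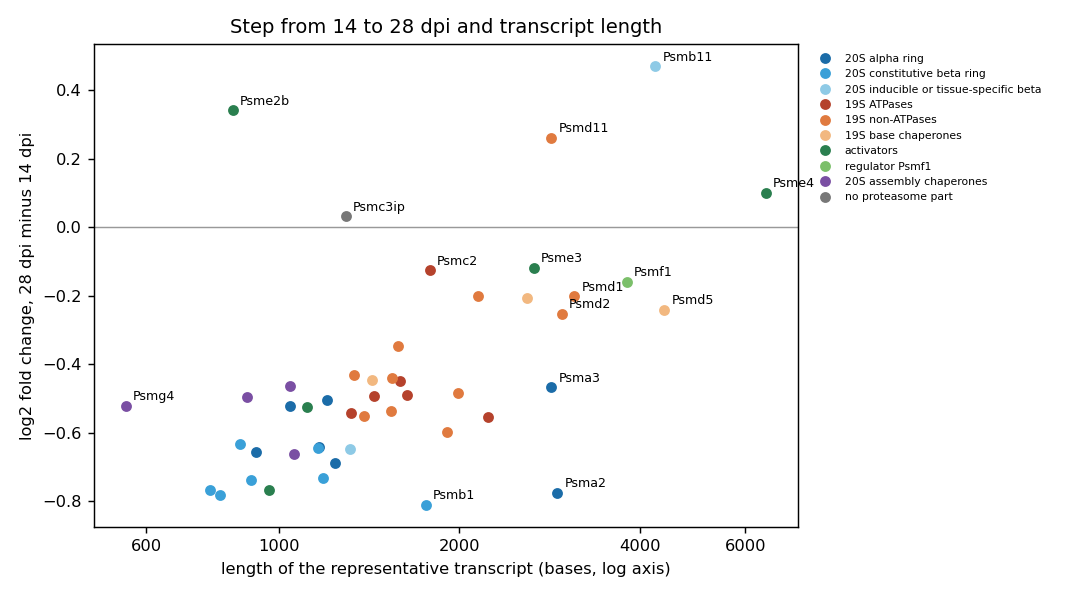
Log2 difference between 28 and 14 dpi of each of the 47 genes against the length of its transcript in bases (log axis), coloured by subunit class. The shorter genes tend to lie lower (Pearson's r 0.54), with exceptions such as Psma2 (2911 bases, -0.78), and Psme4, Psmd5, Psmf1 and Psmb11, all with longer ones, lie above -0.25.

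Per kilobase of transcript, the mean sham level was highest for Psmc5 (94.4 CPM per kb), Psmc1 (66.9), Psmd2 (54.6), Psmb6 (52.6), Psmb7 (48.8) and Psmb4 (46.7). On that scale the inducible Psmb10 was at 8.33, Psme3 at 17.2, Psme4 at 9.61, Psme2 at 6.84 and Psme1 at 4.66, so the constitutive catalytic subunit Psmb7 stood above the Psmb10 that can replace it. The lowest levels were those of Psme2b (0.645), Psmb11 (0.509) and Psmc3ip (0.434). Several genes have processed copies in the genome, and the share of 31-base words of the transcript that also occur elsewhere was 74.0% for Psmb5, 66.8% for Psmb3, 66.5% for Psma5, 46.4% for Psma4 and 45.3% for Psmd2. For Psmb7 it was 33.5%, most of it with Nek6, which overlaps it on the opposite strand. The library kit does not mark strand, so reads from overlapping genes on opposite strands cannot be told apart.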

How the data were processed

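RNA-seq values of 29 animals in 6 groups (Ctrl, 4d, 7d, 14d, 28d and 42d) were taken from the deposited table. According to the methods, ribosomal RNA was depleted, reads were assigned to the mouse transcriptome of mm10 with SALMON and Tximport, genes with low values were removed, and the authors normalized the counts with edgeR 3.14.0 under R 3.4.1. The deposited values, treated here as a score because they are normalized CPM rounded to 0.1, are not counts, so the depth is unknown and no count model was used. The table's columns of fold changes and p-values by the authors were not used. Of the 30 labelled samples, 1 of the 4d group had no column in the table and was not analysed here. Animals carry identifiers such as A3-1, whose first part (A3) may mark a shared unit; only A3 spans 2 groups (28d and 42d), so unit and group cannot be told apart otherwise.

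Values were analysed as log2(value + 0.5) with limma 3.58.1 in R 4.3.3 (trend, 1 mean per group, 7 comparisons, Benjamini-Hochberg adjustment over 16995 genes, threshold 0.05). Fold changes on this scale understate those of low genes. Exact permutation tests (two-sided, on the mean difference) were run in Python 3.11.15 with numpy 2.4.6 and scipy 1.17.1. The fit was tested on simulated data. Transcript lengths were those of GENCODE for GRCm38, and promoter sequences those of RefSeq for GRCm38.p6. All genes of the name rule could be named; values per animal were given for catalytic and inducible subunits, for activators, and for up to 6 called genes with the largest change in each comparison (or the 2 with the smallest p), to which Psmc1, Psmc2, Psmd2, Psmd5, Psmd11, Psmd12 and Psmd13 were added at 28 dpi after their values were seen. The genes and lists were chosen with earlier results of these data known. A few genes of the comparison lists entered the counts and are not reported here by name. Alternatives were other pseudocounts, filters, scalings, variance models, covariates, a random block and leaving out each animal.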

Additional observations from a re-analysis of the deposited data

Results flagged for a closer look

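Of the 47 proteasome genes, 36 were lower and 1 was higher at 28 dpi than at 14 dpi, and 5 were higher at 42 dpi than at 28 dpi. These results are listed because the difference between the time points itself passed the test (limma, Benjamini-Hochberg adjusted p under 0.05), and genes of the 47 were called against sham at 28 dpi alone.

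Psma1 in animal A1-3 at 42 dpi stood apart from its group, with 30.9 CPM against 33.1 to 33.6 in the other animals. This was 1 of 156 groups of values checked for a single distant animal, and chance flags about 1 in 20 groups.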

How the results depend on the processing

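Scaling each library to the same sum brought the median log2 difference of all genes to -0.48 at 14 dpi, -0.73 at 28 dpi and -0.52 at 42 dpi. It was then -0.22 between 14 and 28 dpi and 0.21 between 28 and 42 dpi. Under the same scaling the median of the 47 genes was -0.32 at 14 dpi (sign turned), -1.08 at 28 dpi, -0.61 at 42 dpi, -0.75 between 14 and 28 dpi and 0.44 between 28 and 42 dpi, and Psme4 (-0.68) and Psmc2 (-0.75) turned below sham at 28 dpi. The count lower at 28 dpi than sham (26) was 43 under that scaling (66% of all genes), 7 with only the 2 groups in the fit (4.8%), 0 with Rn18s-rs5 as covariate (0%), 4 without the 6 libraries above 300000 (3.01%; chosen after seeing the data), 1 with the fold limit and 10 to 31 with 1 animal left out. The count higher at 28 dpi (0) was 1 under quantile normalization, 1 under median centring, 2 with the unit as random block, 3 at adjusted p under 0.1 and 0 to 1 with 1 animal left out. Between 14 and 28 dpi the count lower (36) was 15 under the same-sum scaling and 15 with the fold limit, and the count higher (1) was 0 under both, 2 at adjusted p under 0.1 and 0 to 2 with 1 animal left out; the median after the length and GC correction was -0.33. Between 28 and 42 dpi the count higher (5) was 3 under quantile normalization, 1 with the covariate, 0 with the same sum, no trend, only the 2 groups, the length and GC correction, the fold limit or without the 6 libraries, and 0 to 12 with 1 animal left out. The F test count (34) was 13 without the 6 libraries. For these changes the cause was not tested.

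Of all 786 alternative values for counts, medians and within-animal ratios, 739 stayed the same or close to the reported value, 46 moved and 1 turned. A ratio was taken as the same when its call did not change, and the design left little room for such a change. Of 2107 for named genes, 1961 kept their call, 125 lost and 19 gained it and 2 turned. No paired analysis was possible because the labels give each animal its own identifier. The ratio of Psmb9 to Psmb6 was not run. The depth is unknown, and 4 or 5 animals per group limit the precision.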
